A study of Populus davidiana with 6 samples.

Results

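A group of 151 low-level genes of aspen leaves, out of 40537 genes listed, stood at 0.5 or less of their control level after plants were kept in open air for about 10 minutes. The genes were chosen by 3 conditions on FPKM, the number of sequenced fragments assigned to a transcript relative to its length and to the size of the library. A gene's level is the sum of FPKM over its transcripts. The gene had to span at least 300 bp, its control mean had to lie from 2 to under 10 FPKM, and its highest air-dried value could be at most 0.5 of its lowest control value. In all, 7410 genes met the conditions on span and level, and 2.04% of these met the last one. Because the groups were compared to choose the genes, the difference between air-dried and control leaves is given here as a description and not as a result of a test.

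The leaves came from Populus davidiana, an aspen, cultivar Seogwang9, a line labelled tolerant to drought. The 3 air-dried libraries came from plants about 6 weeks old, grown from internode cultures on a sugar-containing medium with an auxin. These plants were then pulled out, washed and left in open air. The 3 control libraries came from plants of the same cultivar, culture and age. It is not said whether controls were also pulled out and washed, so drying and handling cannot be told apart. It is also not said whether each library came from its own plant, so p-values measure only the spread between these libraries, which may be technical. In bulk leaf RNA, fewer cells of a type and less RNA per cell cannot be told apart.

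Leaves that lose water close their stomata, the pores through which water vapour leaves, and abscisic acid is the plant hormone best known for setting off this closure and the changes in gene expression that follow. The level of a transcript can fall only as fast as existing molecules are degraded, and transcripts differ widely in how long they last. The files pair no gene with a name or a function, so the roles of the 151 genes are not given, the tissue label could not be checked against leaf markers, and only the 2 genes with the largest falls are given by accession. The others are given by position as deposited; no build is named in the labels or file headers.

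Library depth could be compared only relative to control 1, and ran from 0.892 to 1.069 in the air-dried libraries and from 1 to 1.333 in the controls. The 6 libraries also fell into 2 sets that crossed the groups: air-dried 1 with controls 1 and 2, and air-dried 2 and 3 with control 3. Within a set, transcript levels of 2 libraries had rank correlations of 0.817 to 0.863, and across sets 0.733 to 0.773; no batch is named in the labels. The median FPKM over all 22356 genes tested lay between 11.8 and 12.6 in the 6 libraries.

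The median FPKM of the 151 genes was 1.05, 1.10 and 1.17 in air-dried libraries 1, 2 and 3, against 4.38, 4.51 and 4.31 in controls 1, 2 and 3. The air-dried mean of a gene had a median of 27.4% of its control mean, with quartiles at 18.4% and 34.6%. In 13 genes the air-dried mean was under 10% of the control mean, in 34 it was 10% to under 20%, in 41 it was 20% to under 30%, in 50 it was 30% to under 40%, and in 13 it was 40% or more. The highest share was 44.6%. The remaining 7259 genes of the same level and span had a median of 100.3%.

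**Figure D1:**
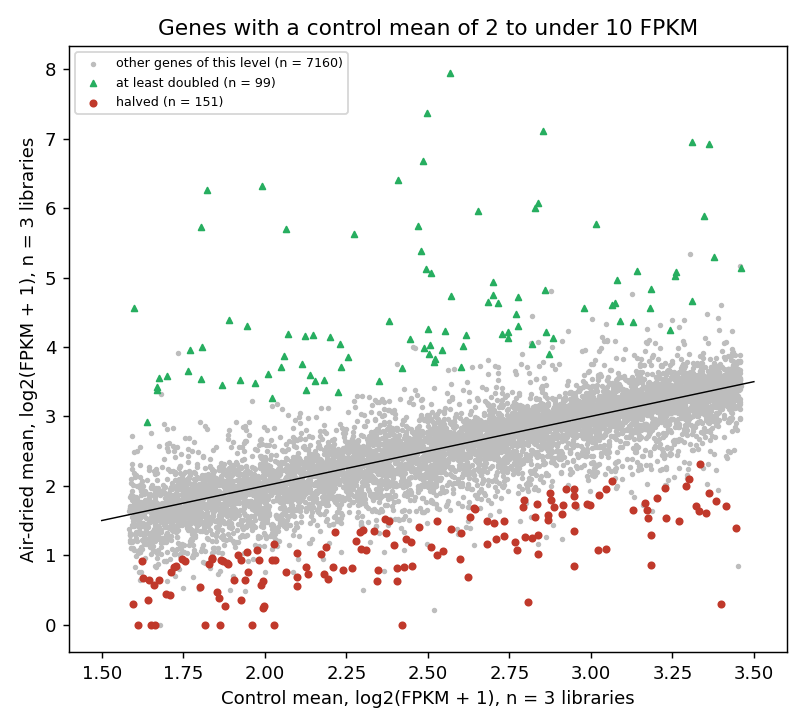
Mean level in air-dried leaves (vertical axis) against mean level in control leaves (horizontal axis), both as log2(FPKM + 1) over 3 libraries, for the 7410 genes with a control mean of 2 to under 10 FPKM and a span of at least 300 bp. Red points are the 151 halved genes, green triangles 99 genes whose lowest air-dried value was at least 2 times the highest control value, grey points the other genes, and the line marks equal levels.

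Fold changes are given on the log2(FPKM + 1) scale, where the change of a low gene comes out smaller than it was. The log2 fold change of the 151 genes had a median of -1.28 and ran from -3.12 to -0.70, beside a median of 0.0080 over all 22356 genes tested. Every one of the 151 had a mean of at least 1 FPKM and entered the test, through its control values. In limma's moderated test with Benjamini-Hochberg adjustment over all genes tested, 142 of the 151 had an adjusted p under 0.05 and a lower level in air-dried leaves. The share called lower was 7.44% among all genes tested and 8.74% among the 7410 genes of this level and span, and nothing is read from the difference because the same values chose the 151. The 9 genes without a call were 7 with a control library at 0 and 2 with uneven controls. The uneven genes lay on chromosome 5 (22108535 to 22109382) and on a scaffold (4524 to 5183).

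**Figure D2:**
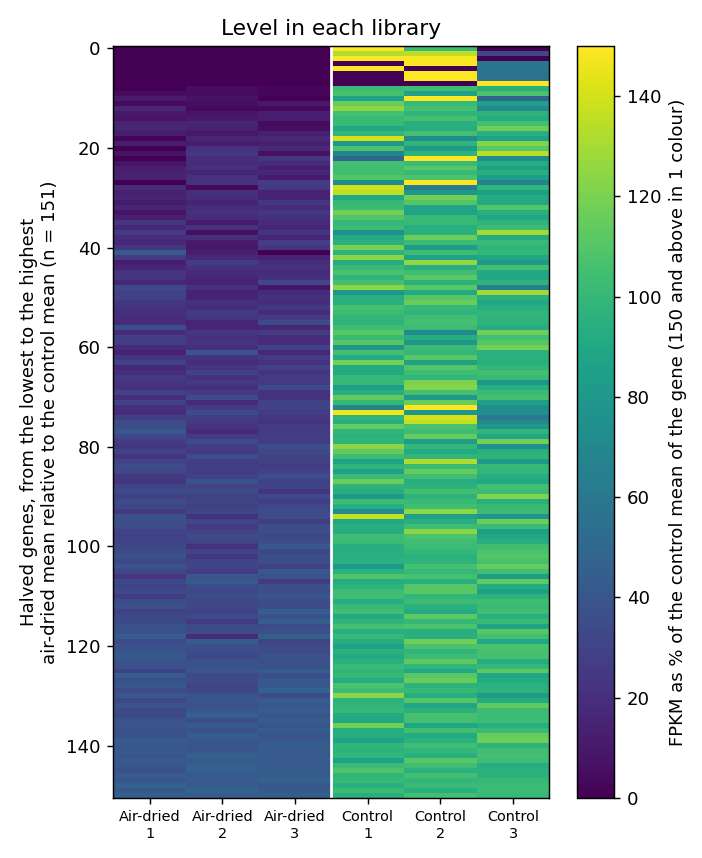
Level of each of the 151 halved genes (rows, from the lowest to the highest air-dried share) in each library (columns), as FPKM in percent of the control mean of the gene. The air-dried columns are darker than the control columns, except in 7 rows at the top, where a control library is also at 0.

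The library with the extreme value varied from gene to gene. Of 143 genes with an air-dried value above 0, the highest air-dried value was in library 1 for 48, in library 2 for 33 and in library 3 for 62. Of 144 genes with no control at 0, the lowest control value was in library 1 for 49, in library 2 for 35 and in library 3 for 60. The coefficient of variation of the controls had a median of 11.1%.

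A lower level within each library set follows from the rule for any gene with values above 0, so the sets are given for their sizes. Within the set of air-dried 1 and controls 1 and 2, the log2 fold change had a median of -1.28 and was below 0 in 150 of 151 genes. Within the set of air-dried 2 and 3 and control 3 the median was -1.19, and 149 genes were below 0. Each of these values rests on a single library in 1 group. With the set as a term, 140 of the 151 genes were called lower, beside 6.92% of all genes tested.

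The largest fall belonged to POPTR_0019s14590, on the plus strand of chromosome 19 (15328870 to 15331637), which has 1 known transcript. It was listed at 0 in air-dried 1 and had 0.458 and 0.217 FPKM in air-dried 2 and 3, against 9.73, 9.87 and 9.03 FPKM in the controls. It averaged 0.225 ± 0.229 FPKM in air-dried leaves and 9.55 ± 0.454 FPKM in control leaves (SD, n = 3 each), and its log2 fold change was -3.12 (SE 0.154). The control level of this gene was among the highest of the 151, and its air-dried level among the lowest.

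POPTR_0019s04130, also on the plus strand of chromosome 19 (4234607 to 4237030) and also with 1 known transcript, had 0.315, 0.296 and 0.168 FPKM in air-dried libraries, against 6.37, 5.15 and 6.47 FPKM in controls. All 3 air-dried values lay far below the lowest control value. The mean was 0.260 ± 0.0800 FPKM in air-dried leaves and 5.997 ± 0.735 FPKM in control leaves (SD, n = 3 each), 4.33% of control, and the log2 fold change was -2.47 (SE 0.123).

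The next fall in size on this scale was that of a minus-strand gene on chromosome 13 (2056190 to 2057876), with 0.628, 0.856 and 0.970 FPKM in air-dried libraries against 8.25, 8.58 and 7.47 FPKM in controls. Its log2 fold change was -2.33 (SE 0.110). The order depends on the constant added before taking logs: with 0.1 in place of 1 it was -3.17, and other genes passed it, among them a locus on chromosome 11 described below (1224483 to 1224952) with -3.52. The gene lies inside the span of a far longer gene on the same strand (1858495 to 2243332), which averaged 1.31 FPKM in air-dried leaves and 1.76 FPKM in control leaves, so reads of the pair may not have been told apart.

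A plus-strand gene on chromosome 16 (4024158 to 4025110) had 0.173, 1.02 and 1.17 FPKM in air-dried libraries and 9.43, 4.88 and 5.82 FPKM in controls. Air-dried 1 and control 1 stood apart from the other libraries of their groups, and the log2 fold change was -2.74 in the set that holds both and -1.70 in the other. A minus-strand gene on chromosome 4 (20767190 to 20768439) had the highest control mean of the 151, with 1.54, 1.94 and 1.42 FPKM in air-dried libraries against 8.87, 11.7 and 9.13 FPKM in controls. Its log2 fold change was -2.04 (SE 0.135).

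Another 3 genes had log2 fold changes close to each other, from -1.96 to -1.94. On chromosome 3 (15494841 to 15497302, minus strand) the values were 1.08, 1.55 and 0.781 FPKM in air-dried libraries against 7.95, 7.76 and 6.08 FPKM in controls. On chromosome 1 (30442702 to 30446254, minus strand) they were 0.985, 1.10 and 1.23 FPKM in air-dried libraries against 7.44, 7.24 and 6.70 FPKM in controls. On chromosome 2 (7562270 to 7563927, minus strand) they were 0.629, 0.505 and 0.681 FPKM in air-dried libraries against 5.12, 5.45 and 4.91 FPKM in controls. The air-dried values were more spread out in the chromosome 3 gene than in the other 2, relative to their mean.

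**Figure D3:**
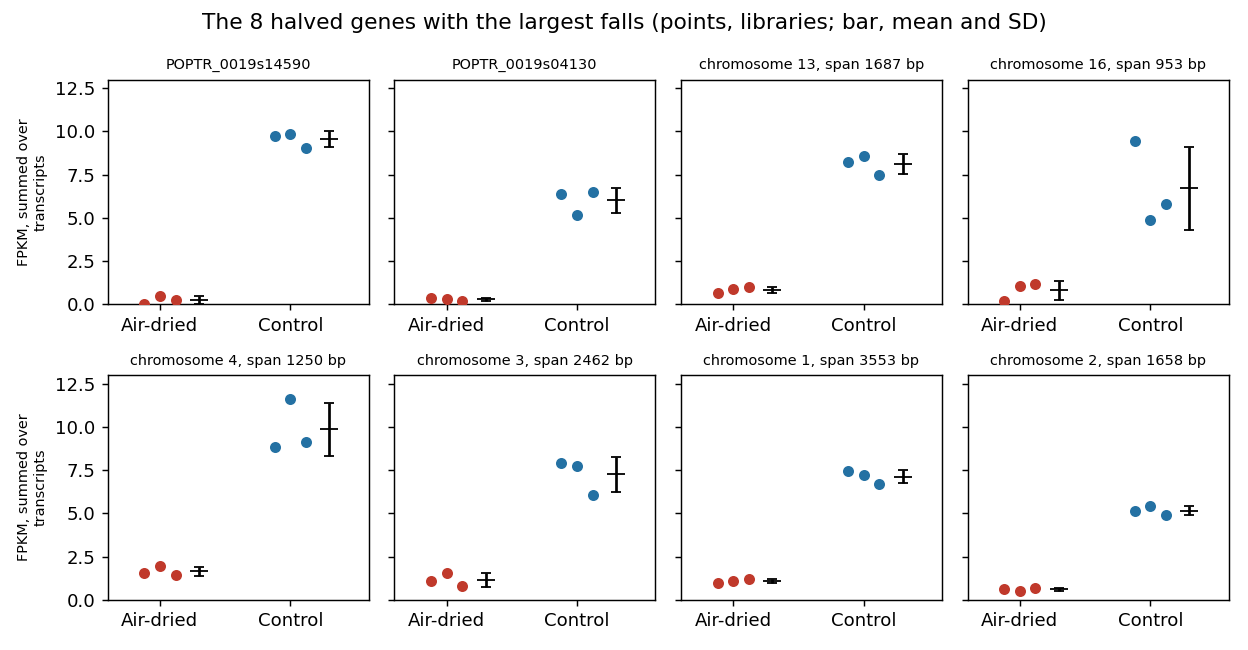
FPKM of the 8 halved genes with the largest falls on the log2(FPKM + 1) scale, in 3 air-dried libraries (red points) and 3 control libraries (blue points), with the mean and SD beside them. The highest air-dried point is at 1.94 FPKM and the lowest control point at 4.88 FPKM.

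The most even controls belonged to a gene on chromosome 9 (12467601 to 12469353), chosen after its values were seen. It had 2.94, 3.19 and 3.49 FPKM in air-dried libraries against 7.38, 7.33 and 7.39 FPKM in controls, a log2 fold change of -0.99. A gene on chromosome 2 (1139077 to 1144448), chosen in the same way, had 0.729, 0.624 and 0.738 FPKM in air-dried libraries against 2.87, 2.82 and 2.90 FPKM in controls, a log2 fold change of -1.19. In both genes the libraries of a group lay close together.

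At the other end stood 8 genes that were listed at 0 in all 3 air-dried libraries. In 7 of these a control library was also listed at 0, so that the limit of 0.5 was met without any control level to halve. A 304 bp locus on chromosome 15 (12059625 to 12059928) had 8.61, 4.46 and 0 FPKM in controls 1, 2 and 3, and a 382 bp gene on chromosome 2 (8313564 to 8313945) had 0, 7.43 and 1.82 FPKM. A gene on chromosome 10 (17995715 to 17996048) had 4.37, 4.31 and 0 FPKM in the controls, and one on chromosome 13 (1192181 to 1192756) had 6.36, 0 and 1.55 FPKM. Since 0 can also stand for an estimate that failed, no fold is given for these genes. None of the 7 was called in limma's test. The eighth, a 377 bp locus on chromosome 1 (24525512 to 24525888), had 3.35, 3.40 and 0.823 FPKM in the controls.

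Without the 7 genes, 144 remained, with a median air-dried level of 28.8% of control and a median log2 fold change of -1.28. Of these, 142 were called lower with limma, beside 7.44% of all genes tested.

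The limit of 0.5 cut through a continuous range of values. The 4 genes just inside it had a highest air-dried value between 0.498 and 0.5 of the lowest control value, and the 4 just outside it between 0.5002 and 0.503. Just inside, a gene on chromosome 1 (23769458 to 23771144) had 2.70, 3.13 and 2.81 FPKM in air-dried libraries against 6.74, 6.25 and 6.75 FPKM in controls. Just outside, a gene on chromosome 5 (24145658 to 24151311) had 4.84, 4.59 and 4.75 FPKM in air-dried libraries against 9.64, 9.68 and 10.2 FPKM in controls. The log2 fold changes of the 4 genes inside ran from -1.81 to -0.95, and those of the 4 outside from -1.03 to -0.80, so genes on either side of the limit overlapped in their difference. At the level limits, the lowest control mean inside was 2.02 FPKM and the next one outside 1.99 FPKM, and the highest inside was 9.89 FPKM and the next one outside 10.2 FPKM. At the span limit, the shortest gene inside had 304 bp and the longest outside had 284 bp.

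Lower levels held more of the genes. Of the genes with a control mean of 2 to under 4 FPKM, 67 (2.66%) were halved, at 4 to under 6 FPKM 38 (2.02%), at 6 to under 8 FPKM 27 (1.68%) and at 8 to under 10 FPKM 19 (1.36%). Among 12225 genes of the same minimum span with a control mean of at least 10 FPKM, 119 (0.973%) met the limit of 0.5. The shares were not compared by a test. The 151 genes and the 119 genes each include 7 with a control library at 0. Most of the 7 among the 151 averaged under 4 FPKM in controls, where they add to the share. The opposite condition, a lowest air-dried value at least double the highest control value, was met by 99 (1.34%) of the 7410 genes.

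Beyond the minimum span, the rule set no condition on the structure of the genes. FPKM is relative to length, and the rule used the extreme values of each group. Structure may therefore have entered the choice through the values, which was not tested. The 151 genes had a median span of 2424 bp, against 3493 bp in the other 7259 genes of the same level. Of the 151, 25 spanned under 1000 bp, 35 spanned 1000 to under 2000 bp, 58 spanned 2000 to under 4000 bp and 33 spanned 4000 bp or more. In the 144 genes with no control at 0, these counts were 20, 34, 58 and 32. The share halved, counting all 151, was 3.20% at 300 to under 1000 bp, 3.10% at 1000 to under 2000 bp, 2.41% at 2000 to under 4000 bp and 1.07% at 4000 bp or more. The share doubled in the same spans was 2.30%, 3.89%, 1.20% and 0.259%.

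Genes with few transcripts made up most of the group. A single transcript was listed for 67 of the 151 (44.4%), against 29.1% of the other genes of this level, and at least 5 transcripts for 22 (14.6%), against 28.8%. Of the 144 genes with no control at 0, 60 (41.7%) had a single transcript and 22 (15.3%) at least 5. The shares that follow count all 151. The share halved was 3.08% of genes with 1 transcript, 3.33% of those with 2, 0.920% of those with 3 or 4 and 1.04% of those with 5 or more. The 2 properties go together, since long genes have more transcripts. Among genes spanning 2000 to under 4000 bp, 3.34% of those with 1 or 2 transcripts were halved, against 1.34% of those with 3 or more. Among genes of 4000 bp or more the shares were 2.40% and 0.811%. These shares are descriptions, without a test of their difference. The 119 halved genes with a control mean of at least 10 FPKM had similar values, with a median span of 2583 bp, a single transcript in 43.7% and at least 5 transcripts in 10.1%. Among the 99 doubled genes, the median span was 1687 bp and 61.6% had a single transcript.

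**Figure D4:**
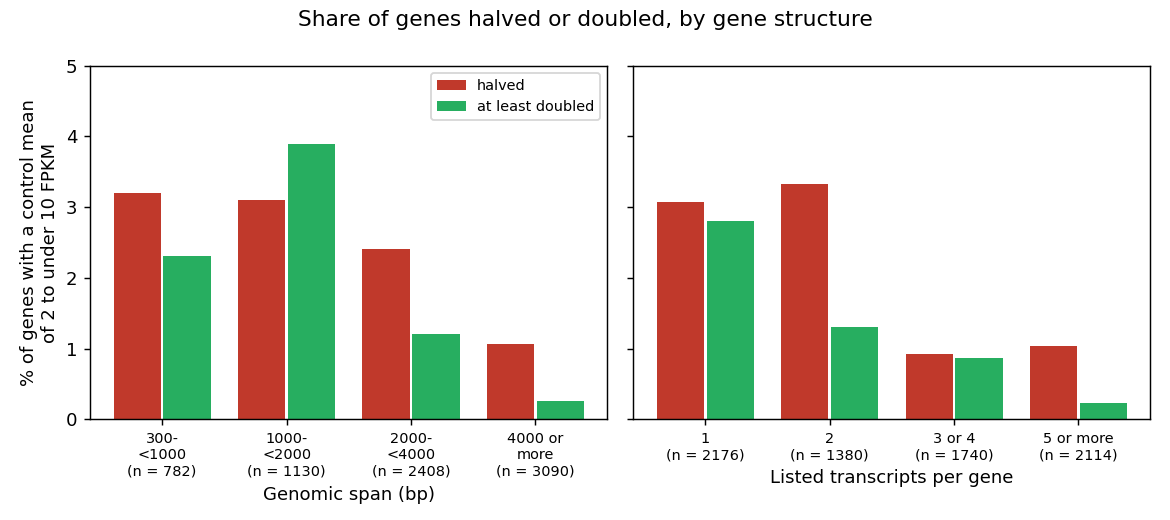
Share of genes halved (red bars) or at least doubled (green bars) after air drying, in percent of the 7410 genes with a control mean of 2 to under 10 FPKM, by genomic span in bp (left) and by number of listed transcripts (right). The halved share is about 3% in the shorter spans and at 1 or 2 transcripts and about 1% at 4000 bp or more and at 3 or more transcripts. The 7 halved genes with a control library at 0 are included.

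The halved genes were spread over all 19 chromosomes. Chromosome 1 held 18 of them, and chromosomes 9, 5 and 6 held 12, 11 and 11. As a share of the genes of this level and span, the range was from 0.784% on chromosome 12 (2 genes) and 0.840% on chromosome 10 (4 genes) to 3.49% on chromosome 9 (12 genes) and 3.5% on chromosome 19 (7 genes). The 2 genes with the largest falls both lay on chromosome 19. Another 2 genes lay on scaffolds.

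The files mark each transcript as known or as assembled from the reads. The 151 genes had 349 transcripts, of which 174 were known and 175 assembled. Of the assembled ones, 160 carry the letter j in their accession, which Cufflinks' naming uses for a new combination of exons that shares a splice junction with a known transcript. Known transcripts of a single accession were found in 135 genes, and in 8 genes the assembly had joined known transcripts of 2 or 3 accessions into 1 locus. The other 8 genes had no known transcript (5.30%, against 5.35% of the other genes of this level).

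Among these 8 loci, one on chromosome 1 (1862726 to 1864203, minus strand) had 1.28, 0.318 and 1.17 FPKM in air-dried libraries against 3.80, 4.82 and 6.55 FPKM in controls. A locus on chromosome 11 (1224483 to 1224952, no strand given) had 0.319, 0.226 and 0 FPKM in air-dried libraries against 2.58, 4.94 and 1.44 FPKM in controls. The highest control value of each locus was well above its lowest. Each of them overlaps another listed gene.

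In the 84 halved genes with more than 1 transcript, the leading transcript is taken as the one with the highest control mean. It held a median of 84.4% of the air-dried level and 86.1% of the control level, and was a known transcript in 52 genes and an assembled one in 32. It met the limit of 0.5 by itself in 52 of the 84 genes, and in 82 all of its air-dried values lay below all control values. Some of the 84 leading transcripts averaged under 1 FPKM and were not tested. Of the 86 transcripts of these genes that were tested, 78 had all air-dried values below all control values, beside 9.84% of all transcripts tested. Nothing is read from these counts, since the same contrast chose the genes. The leading transcript held under 50% of the air-dried level in 14 genes and under 50% of the control level in 3. The same transcript led in all 6 libraries in 47 genes, and in no gene did the air-dried libraries share 1 leading transcript and the controls another.

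In 36 genes the known and the assembled transcripts each summed to over 0.5 FPKM in the controls. The air-dried level had a median of 28.7% of control for the known sum and 26.99% for the assembled sum, in genes whose total was chosen as halved. As single transcripts, 48 of 153 transcripts tested were called lower with limma (0.861% of all transcripts tested), and 23 were when the set entered the fit as a term (0.625%). Leaving out air-dried 1, 2 or 3 left 13, 7 or 10 of them called (0.289%, 0.164% or 0.243% of all transcripts). Leaving out control 1, 2 or 3 left 1, 2 or 6 (0.106%, 0.0914% or 0.296%).

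The gene with the most transcripts, 10, lay on chromosome 16 (2994133 to 2998031). Its sum was 2.85, 2.60 and 3.14 FPKM in air-dried libraries against 6.62, 7.66 and 7.50 FPKM in controls. Its leading known transcript had 1.92, 1.78 and 1.16 FPKM in air-dried libraries against 4.53, 6.68 and 6.77 FPKM in controls, which was 56.6% of the air-dried sum and 82.6% of the control sum. A gene with 9 transcripts on chromosome 13 (2322372 to 2329568) had 0.394, 0.335 and 0.735 FPKM in air-dried libraries against 2.11, 2.27 and 2.10 FPKM in controls. Among those with 8 transcripts, one on chromosome 9 (7222079 to 7229497) had 1.23, 1.49 and 1.81 FPKM in air-dried libraries against 5.19, 5.28 and 4.74 FPKM in controls. Another on chromosome 4 (8546647 to 8549231) had 1.96, 1.92 and 1.94 FPKM in air-dried libraries against 5.27, 5.11 and 5.20 FPKM in controls.

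A locus on chromosome 5 (6562331 to 6570575, minus strand), chosen after its values were seen, joined known transcripts of 3 accessions. Its sum was 2.83, 1.74 and 2.72 FPKM in air-dried libraries against 9.44, 10.9 and 8.00 FPKM in controls. The assembled transcript that led in the controls had 5.06, 4.48 and 6.55 FPKM there and 0.00249, 0.000374 and 0.530 FPKM in air-dried libraries. In air-dried 1 and air-dried 2 most of the remaining level was assigned to transcripts that were near 0 in the controls, with 1.82 FPKM on one and 1.74 FPKM on another. Over the 151 genes, 68 transcripts had a higher mean in air-dried leaves, 24 of them by at least 0.1 FPKM and 2 by at least 0.5 FPKM, both in this locus. In other genes too, the share of a transcript in the mean level of a group differed widely between the groups. The transcript leading in the controls held 9.19% of the air-dried sum and 74.5% of the control sum in a gene on chromosome 9 (10586140 to 10588621). These shares were 23.2% and 89.1% in a gene on chromosome 7 (13864200 to 13871479), and 27.1% and 93.8% in one on chromosome 3 (6376746 to 6379602). In other genes the share was higher in air-dried leaves, as with 85.7% and 58.5% in one on chromosome 6 (8107632 to 8109517). Picking the transcript by its control mean favours a higher share in controls. These genes were chosen after their values were seen. Libraries of a group did not agree on single transcripts. A transcript of the chromosome 7 gene had 0.905, 0.774 and 0.0404 FPKM in air-dried libraries, but also 0.781 FPKM in control 3. One of the chromosome 3 gene had 2.18e-05, 0.362 and 0.869 FPKM in air-dried libraries, with 0.202 FPKM in control 3. One of the chromosome 9 gene had 5.23e-06, 0.792 and 0.540 FPKM in air-dried libraries. A change between transcripts was not tested.

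Of the 151 genes, 17 overlapped another listed gene, and no strand setting is given for the counting. These had 31 overlapping partners, of which 19 were tested, 2 were called lower and 1 was called higher (limma; 7.44% and 5.6% of all genes tested). A single locus of 368545 bp on chromosome 1 (42158252 to 42526796), at 0 in all air-dried libraries and in controls 1 and 2, accounted for 14 of the partners and for 6 of those tested, none of them called. A 337 bp gene on chromosome 13 (14957765 to 14958101, plus strand) had 0, 0.488 and 0.580 FPKM in air-dried libraries against 1.63, 3.59 and 1.52 FPKM in controls. It lies inside a minus-strand gene (14956650 to 14959345) that had 38.3, 30.4 and 31.0 FPKM in air-dried libraries against 157, 153 and 119 FPKM in controls, with a limma adjusted p of 0.000802. The gene of 8 transcripts on chromosome 4 overlaps a minus-strand gene (8548082 to 8548532) with 4.09, 0.942 and 6.87 FPKM in air-dried libraries against 17.3, 18.6 and 14.4 FPKM in controls, with a limma adjusted p of 0.0472. Reads of such pairs may not have been told apart.

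No 2 of the halved genes were next to each other. Their nearest listed genes on either side filled 299 places, of which 122 held genes below the mean of 1 FPKM needed for testing. The levels of the other 176 genes had no part in choosing the group. In limma's test 20 of them (11.4%) were lower and 8 (4.55%) higher, beside 7.44% lower and 5.6% higher among all genes tested, and their median log2 change was -0.0060. With known transcripts alone, 9 of 140 (6.43%) were lower, beside 4.46% of all genes tested. The difference in shares was not tested.

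By orientation, 9 of 78 neighbours on the same strand, 5 of 44 divergent neighbours and 5 of 44 convergent neighbours were lower, and 1 of 10 where a strand was not given. By distance, 2 of 9 overlapping neighbours were lower, 1 of 17 at under 1000 bp, 11 of 108 at 1000 to under 10000 bp and 6 of 42 at 10000 bp or more. Reads of the overlapping neighbours may not have been told apart from those of the halved gene. Among neighbours that do not overlap, the largest fall was 7748 bp away on chromosome 14 (10466437 to 10468180), with 12.6, 9.11 and 10.7 FPKM in air-dried libraries against 40.5, 49.7 and 36.2 FPKM in controls (log2 fold change -1.87, limma adjusted p = 0.00127). The gene beside the chromosome 3 gene described above (15489879 to 15492958, plus strand) had 4.88, 7.30 and 9.32 FPKM in air-dried libraries against 20.1, 25.5 and 22.3 FPKM in controls (log2 fold change -1.57, limma adjusted p = 0.00748). The largest rise was on chromosome 10 (16262934 to 16264170), with 55.5, 56.9 and 56.3 FPKM in air-dried libraries against 18.2, 15.9 and 16.7 FPKM in controls (log2 fold change 1.67, limma adjusted p = 0.000181), 4687 bp from a halved gene. The neighbours and pairs named were chosen after their values were seen.

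**Figure D5:**
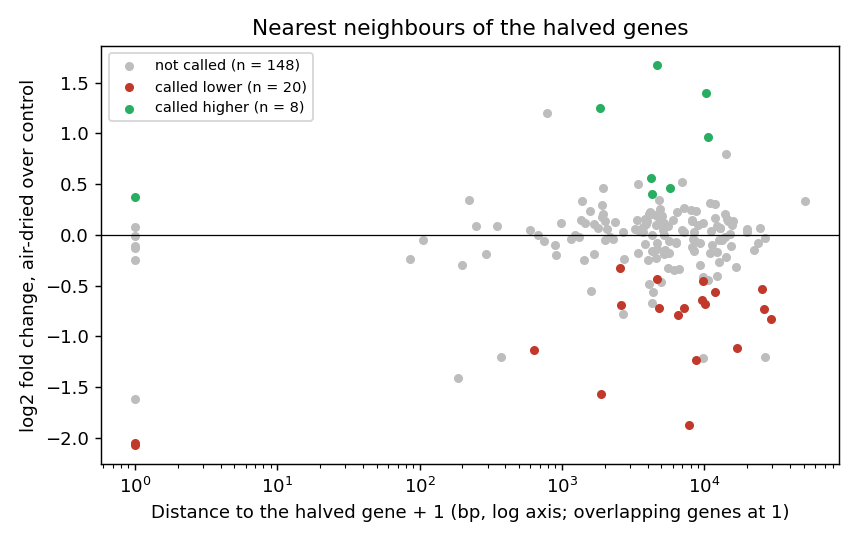
Log2 fold change (air-dried over control, on the log2(FPKM + 1) scale) of the 176 tested genes next to a halved gene, against their distance to it in bp on a log axis. Red points are the 20 genes called lower, green points the 8 called higher; most points lie close to 0 at every distance.

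Within 50000 bp of each other, 4 pairs of halved genes were found, each pair on 1 strand. On chromosome 19, POPTR_0019s04130 lay 17265 bp from a gene (4213661 to 4217341) with 1.49, 0.992 and 0.860 FPKM in air-dried libraries against 7.21, 5.04 and 5.24 FPKM in controls, and the gene between them was listed at 0 in every library. On chromosome 17, genes at 2005032 to 2007210 and 2023670 to 2026710 had log2 fold changes of -1.62 and -1.09, while the gene between them (2012426 to 2013533) had 108, 81.8 and 83.5 FPKM in air-dried libraries against 93.5, 112 and 70.0 FPKM in controls (limma adjusted p = 0.996). On chromosome 5, the joined locus lay 17589 bp from a gene (6588165 to 6588825) with 2.69, 1.98 and 1.72 FPKM in air-dried libraries against 7.27, 10.6 and 5.46 FPKM in controls, with a gene listed at 0 between them. On chromosome 6, genes at 10910054 to 10912053 and 10958589 to 10962793 had log2 fold changes of -0.84 and -1.46, and the 5 genes between them were listed at 0. Without sequences, similarity between the genes of a pair was not examined.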

How the data were processed

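FPKM per transcript were deposited by the authors, 1 file per library; the unit is per the file headers. The submitters' processing notes list FastQC, TopHat and Cufflinks; libraries were made from poly(A) RNA and read as 100 bp pairs, per the labels' protocols. No source names their versions, the genome build, the annotation or a strand setting. Each file listed the same 112919 transcripts. FPKM were summed per gene, used without rescaling, as log2(FPKM + 1). The 22356 genes averaging 1 FPKM or more were compared with limma 3.58.1 in R 4.3.3 (lmFit, eBayes with trend), two-sided, Benjamini-Hochberg adjusted, threshold 0.05; single transcripts likewise. Only the main fit of genes was run on simulated data with planted changes, drawn without library sets. Relative depth is the most frequent ratio of values under 0.4 FPKM between libraries, in genes of 600 bp or more with 1 known transcript; absolute depth is unknown, so no counting interval is given. The halved genes, all lists and named genes were chosen with earlier results of these data known. Named genes were the 8 largest falls, up to 4 genes at 0 in air-dried libraries, 4 on each side of the limit, up to 4 without a known transcript and 4 with the most transcripts. Functional lists could not be applied because no names are given.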

Additional observations from a re-analysis of the deposited data

How the results depend on the processing

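Of 374 combinations of 27 named genes and alternative settings, 348 kept their side of the limma threshold. Another 24 lost a call (18 of them without a single library), 2 gained one and none reversed direction. The choice of these genes largely fixed the direction in every setting but known transcripts alone, so nothing is read from the lack of reversals. Without single libraries, 824 to 1125 genes were called lower (3.69% to 5.03% of all genes), with 132 to 140 of the 151 halved genes and 14 to 17 of the 176 neighbours. Of the transcripts of the halved genes, 1 to 13 were called lower, beside 0.0914% to 0.296% of all transcripts. In these settings 168 to 201 genes met the rule. The limit of 0.5 on extreme values can only loosen when a library is left out, so nothing is read from the rise. The total of 1663 genes called lower became 1102, 943 or 1125 when air-dried 1, 2 or 3 was left out, and 961, 824 or 1101 when control 1, 2 or 3 was, with fewer samples. With known transcripts alone 754 genes (4.46% of all genes), 92 of 113 halved genes and 9 neighbours were called lower, from fewer genes. The rule was then met by 122 genes, of which only 94 were among the 151, so part of the group depends on assembled transcripts. Where only genes averaging 5 FPKM or more were tested, 18 of the 18 halved genes left were called lower, beside 6.8% of all genes. Of single transcripts averaging 5 FPKM or more, 9 of the 12 left in halved genes were called lower, beside 444 of 20936 in all. Adding the library set as a term left 23 transcripts of halved genes called, and the cause was not tested. With a limit of 0.6 or 0.4 in place of 0.5, 243 or 88 genes met the rule. Pairing was not taken as given. The deviations of libraries numbered 1 and 3 correlated with those of their own number (0.187 and 0.2916, the best match of each of these air-dried libraries). Those numbered 2 did not (-0.0961, against 0.1099 with control 3). Air-dried 1 also correlated with control 2 (0.1605), and every best match lay within a library set. For numbers 1 and 3, a shared number and a shared set cannot be told apart. With the replicate block limma called 135 of the halved genes (5.35% of all genes), 18 neighbours and 1197 genes in all lower. It called 0 of the 153 transcripts of halved genes lower, and 5 of all 41577 transcripts tested. At an unadjusted limma p under 0.05, 131 of the 153 and 2614 of the 41577 were lower. Nothing is read from the 131, since the same contrast chose the genes. Leaving out genes with a control library at 0, chosen after seeing the data, left 144 genes. The counting precision of values under 1 FPKM cannot be stated without total reads.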
